A study of Homo sapiens with 32 samples.

Results

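The genes described here encode proteins that build the mitotic spindle, attach chromosomes to it, delay anaphase until attachment is complete, and divide the cell, together with FOXM1 and MYBL2, transcription factors of the same programme. They were chosen by gene symbol from a list of 45. Of these, 44 had a probe that was detected on at least 4 of the 32 arrays of the series, and all 44 were among the 12973 genes tested, while ECT2 was not analysed here. The 44 genes had 59 probes, of which 56 were detected on at least 4 arrays, and 33 were detected on all 32 arrays. Each gene was read from the probe with the highest mean signal.

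Total RNA from 2 human liver tumour lines, Huh7 and HepG2, both given in the labels as HCC lines, was hybridised to one-colour Illumina bead arrays. Each line had 4 arrays with DMSO, 4 with SAHA, 4 with a scrambled siRNA and 4 with an HDAC2 siRNA. SAHA (vorinostat) is an inhibitor of histone deacetylases, and HDAC2 is one member of that enzyme family. The DMSO and SAHA arrays form one subset of the series and the siRNA arrays the other, so each treatment has its own controls. The sources used here give no dose, duration or siRNA sequence. Whether the 4 arrays of each group stem from independent cultures is not stated, so the p-values speak of the spread between arrays, possibly technical.

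Most of these genes are transcribed in a wave that peaks in G2 and mitosis, and their mRNA is low in cells that have left the cycle. FOXM1 activates much of that wave together with the MuvB complex and MYBL2, and the DREAM complex, which shares the MuvB core, represses the same genes in resting cells. The p53 target CDKN1A (p21), an inhibitor of cyclin-dependent kinases, promotes DREAM formation. Once the genes are expressed, cyclins and kinases drive entry into mitosis, the spindle checkpoint holds back CDC20, and release of CDC20 lets the anaphase-promoting complex (APC/C) destroy cyclin B and securin.

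The promoters of the genes were compared by their letters. RefSeq windows of 300 bases (250 before and 50 after the start, GRCh38.p14) were held for 36 of the 44 genes. The words searched on both strands were TTTGAA and TTCGAA for the cell cycle genes homology region (CHR, the element bound by MuvB), CCAAT for the CCAAT box, GTAAACA and ATAAACA for forkhead sites, and TTTCGCGC, TTTGGCGC and TTTCCCGC for E2F sites. No word of one motif lies inside a word of another. A CHR word was in the window of 26 of 36 genes (72.2%), against 16.1% of the 10124 tested genes with a window. A CCAAT box was in 28 of 36 (77.8%), against 43.7% of tested genes. E2F words were in 3 of 36 (8.3%, against 5.3%), and no window held either forkhead word (0 of 36, against 6.9%). A match describes letters and is not a measured binding site.

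The 130 bases before the start are shown for 7 genes on which the results below turn, read 5′ to 3′ towards the start. The first 3 genes have both a CHR word and CCAAT boxes, KIF20A and CCNA2 had the largest falls with SAHA in HepG2, and NEK2 and CENPE were higher with SAHA in Huh7. Capitals mark CHR words and CCAAT boxes, with ATTGG being a CCAAT box on the other strand. The stretches are chr15:59105016-59105145 on the plus strand for CCNB2, chr1:43358851-43358980 on the plus strand for CDC20, chr15:90994536-90994665 on the minus strand for PRC1, chr5:138178982-138179111 on the plus strand for KIF20A, chr4:121823884-121824013 on the minus strand for CCNA2, chr1:211675622-211675751 on the minus strand for NEK2 and chr4:103198344-103198473 on the minus strand for CENPE.
CCNB2: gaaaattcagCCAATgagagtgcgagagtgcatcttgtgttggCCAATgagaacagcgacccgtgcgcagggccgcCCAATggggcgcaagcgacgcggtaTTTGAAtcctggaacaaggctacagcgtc
CDC20: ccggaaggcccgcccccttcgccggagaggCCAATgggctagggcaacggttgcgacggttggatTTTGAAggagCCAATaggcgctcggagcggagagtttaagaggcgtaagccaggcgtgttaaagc
PRC1: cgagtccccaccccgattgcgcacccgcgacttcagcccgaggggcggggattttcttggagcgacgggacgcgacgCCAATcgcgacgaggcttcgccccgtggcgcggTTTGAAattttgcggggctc
KIF20A: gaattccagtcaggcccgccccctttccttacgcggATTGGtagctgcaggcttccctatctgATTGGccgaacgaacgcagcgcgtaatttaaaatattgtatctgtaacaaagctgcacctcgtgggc
CCNA2: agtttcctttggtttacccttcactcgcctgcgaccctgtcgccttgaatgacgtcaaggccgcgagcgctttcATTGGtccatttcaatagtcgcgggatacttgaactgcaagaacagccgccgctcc
NEK2: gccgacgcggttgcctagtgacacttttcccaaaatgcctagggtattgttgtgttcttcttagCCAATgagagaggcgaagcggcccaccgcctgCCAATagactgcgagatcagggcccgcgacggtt
CENPE: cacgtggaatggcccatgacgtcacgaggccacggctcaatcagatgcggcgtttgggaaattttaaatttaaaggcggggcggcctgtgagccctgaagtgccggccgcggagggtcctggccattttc
The CHR word starts 29 bases before the start in CCNB2, 65 bases before it in CDC20 and 20 bases before it in PRC1. KIF20A, CCNA2 and NEK2 have CCAAT boxes and none of the searched CHR letters in these 130 bases, and CENPE has neither.

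The arrays were of even quality. The median signal was 118.2 to 195.5 intensity units, 48.3% to 54.9% of probes were detected per array, and within groups the correlation between arrays was 0.979 to 0.996. HDAC2 itself fell to 9.87% of its scrambled-siRNA level in Huh7 and to 12.1% in HepG2 with the siRNA (limma adjusted p = 4.24e-21 and 2.45e-19). The 12 hepatocyte-lineage markers were all measured, and none went undetected in any group.

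With SAHA, most of the mitotic set fell in both lines, and it fell much further in HepG2. In HepG2, 43 of 44 genes were lower, and the median gene kept 11.1% of its DMSO level (median log2 change -3.17). In Huh7, 36 were lower and 3 higher, and the median gene kept 46.2% (median log2 change -1.11). A gene is called changed here at a limma p under 0.05 after Benjamini-Hochberg adjustment over all 12973 genes. By that rule 27.6% of all genes were lower and 27.0% higher in HepG2 (54.5% in either direction), and 29.1% were lower and 31.6% higher in Huh7 (60.6%). The median of all genes was -0.01 and 0.01. Median scaling of the arrays, used instead of quantile normalization, moved the median of all genes to -0.17 in HepG2 and -0.13 in Huh7, and the share of higher genes among those called from 49.4% to 32.3% and from 52.0% to 39.1%. The mitotic counts then were 43 lower in HepG2, and 40 lower and 1 higher (CENPE) in Huh7. RNA was taken from whole cultures, so fewer cells in mitosis and less mRNA per cell cannot be told apart.

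**Figure D1:**
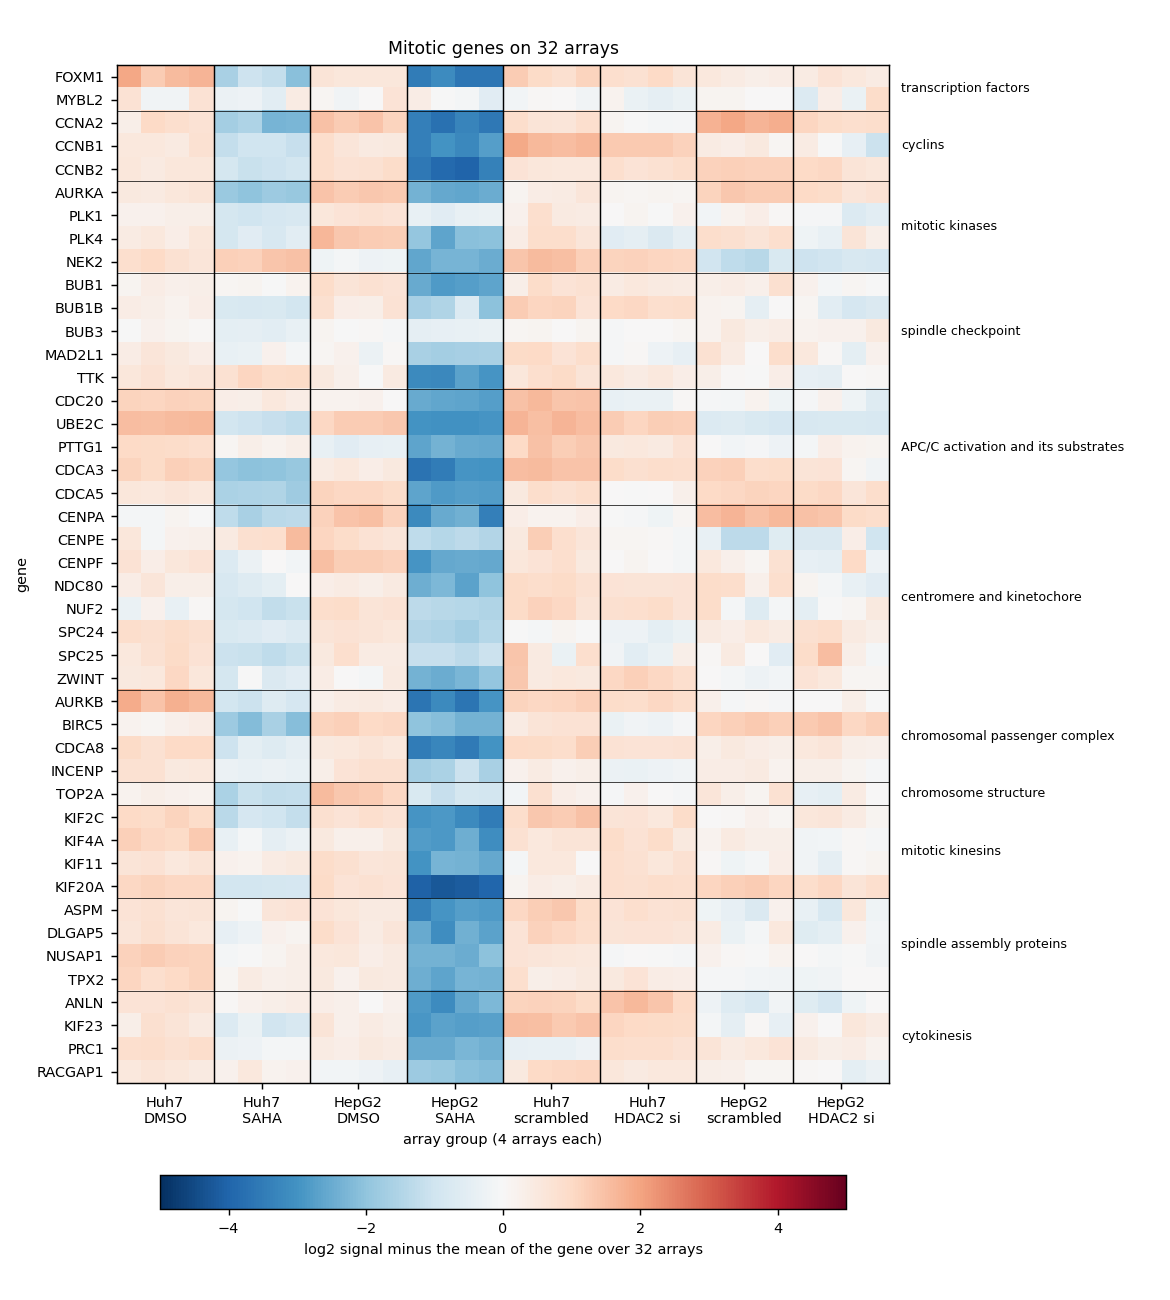
Log2 signal of each of the 44 mitotic genes (rows, grouped by role) on each of the 32 arrays (columns, 4 per group), minus the mean of that gene over the 32 arrays. The HepG2 SAHA columns are the lowest of the plot for nearly all genes, the exceptions being MYBL2, PLK1, TOP2A and, by a small amount, BUB3. The Huh7 SAHA columns are lower than Huh7 DMSO in most rows but not in NEK2, TTK and CENPE.

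The 4-fold mark separated the lines. In HepG2, 38 of the genes were at least 4-fold lower and passed the test, as were 1.70% of all genes. In Huh7, 9 were, beside 2.80% of all genes, and 25 were at least 2-fold lower with none that much higher, beside 11.6% and 12.5% of all genes. Those 9 were FOXM1, CCNA2, AURKA, UBE2C, CDCA3, CDCA5, AURKB, BIRC5 and KIF2C, and all 9 kept at most 25% of the DMSO level in HepG2 too. Per array, the median log2 signal of the 44 genes was 9.52 to 9.67 with DMSO and 8.32 to 8.59 with SAHA in Huh7. In HepG2 it was 9.32 to 9.55 with DMSO and 5.99 to 6.20 with SAHA. The array groups did not overlap in either line, and the HepG2 SAHA arrays lay near the level where probes stop being detected (log2 5.22 to 5.55), with 30 to 35 of the 44 genes detected on each.

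Markers of other cell types were read beside this. In HepG2 with SAHA, the summed signal of the 6 measured leukocyte markers of 10 listed was 5528 to 5879 against 849 to 925 with DMSO, with CD3D up by 4.82 on the log2 scale. PTPRC, CD3E, ITGAM and TYROBP were not among the detected probes. In Huh7 the leukocyte sum was 1079 to 1392 with SAHA and 3919 to 4437 with DMSO. The sum fell there although 3 of the 6 markers were higher and 2 lower. The endothelial sum (4 measured of 6) in HepG2 was 335 to 367 with SAHA and 152 to 191 with DMSO, the fibroblast sum (5 of 7) 787 to 882.5 and 318 to 442, and the hepatocyte sum (12 of 12) 218985 to 226511 and 230653 to 245069. In HepG2, 4 leukocyte, 3 endothelial and 1 fibroblast markers were higher and none lower. Of the hepatocyte markers, 1 was higher and 4 lower in HepG2. All 12 hepatocyte markers were lower with SAHA in Huh7. Their sum there was 60379 to 62638 with SAHA and 133775 to 139634 with DMSO, the endothelial sum 139 to 167 and 183 to 206.5, and the fibroblast sum 615 to 693 and 283 to 372.5. In Huh7, 4 of the 5 fibroblast markers were higher and none lower, and 1 of the 4 endothelial markers was lower and none higher. Whether these shifts bear on the mitotic genes was not tested.

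FOXM1, the forkhead activator of the mitotic wave, was among the most reduced genes. In Huh7 its log2 signal was 10.25, 9.58, 9.89 and 10.00 on the DMSO arrays and 6.70, 7.29, 7.11 and 6.20 on the SAHA arrays. In HepG2 it was 8.94, 8.88, 8.87 and 8.87 with DMSO and 4.83, 5.15, 4.71 and 4.70 with SAHA. The treated arrays were far below the controls in both lines, and in HepG2 the probe used for FOXM1 was detected on none of the 4 SAHA arrays, while its other probe was detected on 1.

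The change in FOXM1 was -3.10, SE 0.16 in Huh7 (limma adjusted p = 9.33e-17), or 8.59-fold lower. In HepG2 this probe was at least 12.1-fold lower (adjusted p = 1.65e-19), and the other changed by -2.86. The fold is a bound set by the signal at which probes count as detected on each SAHA array. MYBL2, which joins MuvB at mitotic genes in S phase, was dim, being detected on 13 of 32 arrays. Its change was -0.42, SE 0.27 in Huh7 and -0.24, SE 0.27 in HepG2, and neither passed the test (adjusted p = 0.176 and 0.486).

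All 3 mitotic cyclins fell in both lines. CCNB2, one of the B-type cyclins that activate CDK1, was at 11.30, 11.14, 11.17 and 11.34 with DMSO and 6.83, 6.52, 6.41 and 7.04 with SAHA in HepG2. In Huh7 it was at 10.96, 10.85, 10.97 and 10.97 with DMSO and 9.54, 9.28, 9.37 and 9.50 with SAHA. The groups were separate in both lines, and the mean was 23.2-fold lower in HepG2 (log2 change -4.54, SE 0.11, limma adjusted p = 1.39e-24) and 2.86-fold lower in Huh7 (-1.52, SE 0.11, adjusted p = 3.38e-13).

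CCNA2, which works in S phase and early mitosis, kept 3.52% of its DMSO signal in HepG2 and 15.7% in Huh7. CCNB1, the main mitotic cyclin, kept 7.72% and 31.8%.

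Among the mitotic kinases the lines parted. AURKA, which matures centrosomes, kept 6.97% in HepG2 and 18.6% in Huh7. PLK4, the kinase that starts centriole duplication, kept 8.49% and 45.2%. PLK1, which acts from mitotic entry to cytokinesis, fell in both lines, to 46.8% in HepG2 and 45.8% in Huh7 (difference between the lines 0.03, 95% interval -0.34 to 0.41).

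NEK2, a kinase that separates centrosomes, went in opposite directions. In Huh7 its log2 signal was 10.67, 10.81, 10.58 and 10.43 with DMSO and 11.00, 10.98, 11.21 and 11.26 with SAHA. The HepG2 signal was 9.61, 9.70, 9.54 and 9.61 with DMSO and 7.22, 7.48, 7.48 and 7.32 with SAHA. Every SAHA array was above every DMSO array in Huh7 and below them all in HepG2. The change was 0.49, SE 0.11 in Huh7 (limma adjusted p = 0.000403) and -2.24, SE 0.11 in HepG2 (adjusted p = 6.54e-17). With median scaling the rise of NEK2 was 0.09 and did not pass (adjusted p = 0.587).

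Of the 5 spindle checkpoint genes, all fell in HepG2 and 3 fell in Huh7. BUB1, a kinase that recruits checkpoint proteins to kinetochores, was at 9.70, 9.94, 9.80 and 9.86 with DMSO and 9.68, 9.69, 9.56 and 9.76 with SAHA in Huh7. In HepG2 it was at 10.47, 10.19, 10.31 and 10.24 with DMSO and 7.06, 6.73, 6.81 and 6.91 with SAHA. The Huh7 groups overlapped and did not pass the test (-0.15, SE 0.12, adjusted p = 0.273), whereas in HepG2 BUB1 kept 9.3% (adjusted p = 2.86e-21). By median scaling BUB1 passed as lower in Huh7 too, at -0.55.

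TTK (MPS1), the kinase at the top of the checkpoint, was at 8.95, 9.08, 8.90 and 8.96 with DMSO and 9.11, 9.43, 9.30 and 9.34 with SAHA in Huh7. The HepG2 signal was 8.87, 8.60, 8.36 and 8.83 and 5.20, 5.13, 5.69 and 5.42. TTK kept 10.1% in HepG2 (adjusted p = 2.74e-19). Its small rise in Huh7 (0.32, SE 0.13, adjusted p = 0.0382) was close to the threshold and turned to -0.03 under median scaling (adjusted p = 0.883). Without any one of 6 of the 8 arrays (DMSO 1, 3 and 4 and SAHA 2, 3 and 4) it was 0.28 to 0.32 and no longer passed (adjusted p = 0.0624 to 0.105).

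BUB1B (BubR1), part of the complex that inhibits CDC20, kept 24.7% in HepG2 and 46.7% in Huh7. MAD2L1, another part of it, was at least 2.06-fold lower in HepG2, where no SAHA array detected it, and kept 65.8% in Huh7. BUB3, the scaffold that binds BUB1 and BUB1B, had the smallest fall in HepG2, to 75.3%, and kept 68.1% in Huh7.

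All 5 genes of APC/C activation and its substrates fell in both lines. UBE2C, the ubiquitin-conjugating enzyme of the APC/C, kept 5.29% in HepG2 and 15.8% in Huh7. CDCA3, an adaptor that targets the WEE1 kinase for destruction, kept 7.52% and 12.0%. CDCA5 (sororin), which protects sister cohesion until anaphase, kept 7.2% and 22.4%. CDC20, the APC/C activator, and PTTG1 (securin), its anaphase substrate, kept 60.5% and 60.7% in Huh7. In HepG2 CDC20 kept 14.5% and PTTG1 23.5%.

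The 8 centromere and kinetochore genes all fell in HepG2, and 7 fell in Huh7. CENPA, the histone H3 variant of centromeres, kept 5.46% in HepG2 and 38.5% in Huh7. CENPF, a kinetochore protein of G2 and mitosis, kept 6.62% and 55.4%. The NDC80 complex, which grips microtubules, was reduced in all 4 subunits. NDC80 kept 15.2% in HepG2 and 55.0% in Huh7, and SPC24 kept 22.0% and 34.5%. NUF2 was at least 3.17-fold lower in HepG2. In Huh7 it kept 51.9%, with only 1 of the 4 SAHA arrays detecting it. SPC25 was detected on no SAHA array of either line and was at least 2.2-fold lower in HepG2 and at least 2.52-fold lower in Huh7.

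CENPE, the kinesin that carries chromosomes to the spindle equator, was at 6.62, 5.95, 6.27 and 6.30 with DMSO and 6.50, 6.83, 6.90 and 7.62 with SAHA in Huh7. In HepG2 it was at 7.11, 6.95, 6.76 and 6.67 with DMSO and 4.76, 4.60, 4.73 and 4.57 with SAHA. In Huh7, 1 SAHA array lay below the highest DMSO array, so the groups overlapped. CENPE was higher in Huh7 (0.68, SE 0.23, limma adjusted p = 0.0133), but without SAHA array 4 the change was 0.46 and no longer passed (adjusted p = 0.0956), and without DMSO array 2 it was 0.57 (adjusted p = 0.0543). In HepG2 it was at least 3.0-fold lower (adjusted p = 1.77e-09) and detected on no SAHA array.

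The chromosomal passenger complex, which corrects faulty attachments and steers cytokinesis, fell in all 4 subunits in both lines. Its kinase AURKB kept 7.56% in HepG2 and 17.2% in Huh7, and its subunit survivin (BIRC5) kept 10.2% and 22.3%. CDCA8 (borealin) kept 6.93% and 33.6%, and the scaffold INCENP kept 22.4% and 51.2%. TOP2A, which untangles sister chromatids, was the one gene of chromosome structure on the list. It kept 21.3% in HepG2 and 35.4% in Huh7.

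Among the mitotic kinesins, KIF20A (MKLP2), which moves the passenger complex to the midzone, had the largest fall of the 44 genes in HepG2. Its log2 signal there was 10.80, 10.51, 10.61 and 10.53 with DMSO and 5.79, 5.59, 5.70 and 5.88 with SAHA. In Huh7 it was 10.88, 10.96, 10.87 and 10.89 with DMSO and 8.92, 8.92, 8.98 and 9.02 with SAHA. The groups were far apart in HepG2, where KIF20A kept 3.41% (limma adjusted p = 1.71e-27), and apart in Huh7, where it kept 26.0% (adjusted p = 3.99e-18).

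KIF2C (MCAK), a microtubule depolymerase, kept 6.79% in HepG2 and 23.3% in Huh7, and KIF4A, a chromosome-bound motor, kept 11.0% and 37.6%. KIF11 (Eg5), the motor that pushes spindle poles apart, kept 10.2% in HepG2, while in Huh7 its change was -0.31, SE 0.15 and did not pass (adjusted p = 0.0744).

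The 4 spindle assembly proteins all fell in HepG2. ASPM, a spindle pole protein, kept 8.68%, DLGAP5 (HURP), which stabilises kinetochore fibres, 10.0%, NUSAP1, a microtubule bundler, 14.4% and TPX2, the activator of AURKA, 13.8%. In Huh7, ASPM changed by -0.32 and did not pass (adjusted p = 0.17), and the other 3 kept 47.1% (NUSAP1) to 60.3% (DLGAP5).

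The 4 cytokinesis genes also fell in HepG2. PRC1, the bundler of the spindle midzone, kept 13.9%, and ANLN, the scaffold of the contractile ring, 13.3%. RACGAP1 kept 29.6%, and its partner KIF23 (MKLP1) was at least 7.42-fold lower, with no SAHA array detecting it. In Huh7 KIF23 kept 41.6%, PRC1 49.0% and ANLN 72.5%, and RACGAP1 changed by -0.26 without passing (adjusted p = 0.0653). Without SAHA array 1, ANLN in Huh7 no longer passed (-0.41, adjusted p = 0.0585), and without SAHA array 2 RACGAP1 did (-0.34, adjusted p = 0.0241).

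**Figure D2:**
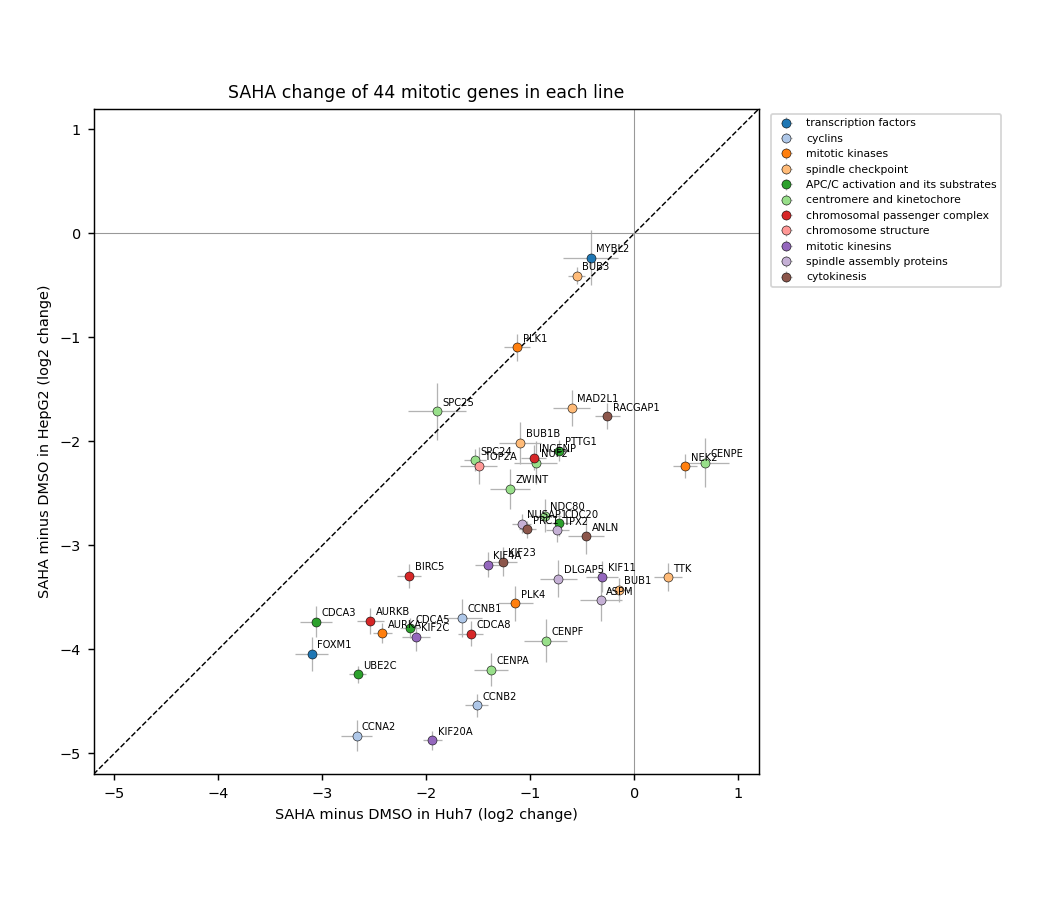
Log2 change with SAHA in Huh7 (x axis) and in HepG2 (y axis) of each of the 44 genes, coloured by role, with standard errors as grey bars and a dashed line where the changes are equal. All but 4 genes (MYBL2, PLK1, BUB3 and SPC25) lie below the dashed line by a difference that passed the test, and NEK2, TTK and CENPE lie right of 0.

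The difference between the lines was tested as the SAHA effect in HepG2 minus the SAHA effect in Huh7. It was lower for 40 of 44 genes and higher for none, with a median of -1.78, while 28.1% of all genes were lower and 24.1% higher by this test (52.2% in either direction) and the median of all genes was -0.06. The largest differences were in the checkpoint kinases TTK (-3.63, SE 0.19, limma adjusted p = 4.25e-16) and BUB1 (-3.28, SE 0.16, adjusted p = 1.29e-16), followed by ASPM (-3.20), CENPF (-3.07) and CCNB2 (-3.02). The 4 that did not pass were PLK1, BUB3 (0.15, 95% interval -0.09 to 0.38), SPC25 (0.19, -0.61 to 0.99) and MYBL2 (0.19, -0.58 to 0.95).

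The order of the genes was partly shared. Across the 44 genes the SAHA changes in the 2 lines correlated with Pearson r = 0.51 and Spearman rho = 0.54, a description over genes measured on the same arrays. FOXM1 and CDCA3, among the most reduced in Huh7, had some of the smallest line differences, -0.94 and -0.67. Both turned sign without background correction (0.13 and 0.05, adjusted p = 0.455 and 0.801), and the other FOXM1 probe gave -0.01 (adjusted p = 0.981). Both genes lay near the detection limit in HepG2 with SAHA.

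Starting levels were mixed. With DMSO, 13 of the 44 genes were higher in HepG2 than in Huh7 and 17 lower, beside 30.0% and 29.9% of all genes (60.0% in either direction). At least 2-fold, 2 were higher and 4 lower, beside 11.1% and 12.0%. CENPA was higher in HepG2 (1.33, SE 0.16, limma adjusted p = 1.71e-08), as was TOP2A (1.09, adjusted p = 2.64e-06). PTTG1 (-1.37, adjusted p = 2.82e-13) and AURKB (-1.29, adjusted p = 2.55e-10) were lower. Of the 40 genes with a stronger fall in HepG2, 12 started higher there, 17 started lower and 11 did not pass. CDKN1A, the p21 gene, rose with SAHA in both lines: its log2 change was 3.22, SE 0.10 in Huh7 (limma adjusted p = 8.67e-22) and 1.67, SE 0.10 in HepG2 (adjusted p = 5.92e-15), and its DMSO level was higher in HepG2 by 2.63. Its part in the fall of the mitotic genes was not tested.

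The SAHA changes were set beside the promoter letters. In HepG2 the median SAHA change was -3.03 for the 26 genes with a CHR word and -2.97 for the 10 without. In Huh7 it was -1.09 with and -1.60 without. No gene with a CHR word was higher in Huh7. Of the 10 without, NEK2 and CENPE were. TTK, also higher in Huh7, had no promoter window and is in neither group. The contrast rests on NEK2 and CENPE alone. The rise of NEK2 did not pass with median scaling, and that of CENPE did not pass when certain single arrays were left out. For the CCAAT box, the HepG2 medians were -3.24 with (28 genes) and -2.46 without (8 genes).

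Neighbouring gene groups were read the same way. The 59 other mitotic genes tested had a median of -2.06 in HepG2 (56 lower, 1 higher) and -0.77 in Huh7 (41 lower, 2 higher). The largest falls in HepG2 were in CDC25C (-3.60), the phosphatase that activates CDK1, HJURP (-3.47), the chaperone of CENPA, and HMMR (-3.45), a spindle protein. GAS2L3 was higher in HepG2 (0.47), and CKAP2 and NSL1 were higher in Huh7 (0.59 and 0.50).

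The 34 DNA replication genes fell too, by a median of -2.52 in HepG2 (33 lower) and -1.36 in Huh7 (30 lower, 1 higher). In Huh7 that median was below the -1.11 of the mitotic list, and in HepG2 it was above the -3.17. The line difference of the replication genes had a median of -0.85 (24 of 34 lower), against -1.78 for the mitotic list. MCM5, a subunit of the replicative helicase, and TYMS, which makes thymidylate, fell in both lines (-3.19 and -3.26 in HepG2, -3.17 and -3.53 in Huh7).

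The APC/C itself was read from 13 subunits and regulators. In HepG2, 7 of them were lower (53.8%, beside 27.6% of all genes) and none higher, with a median of -0.36, and 2 fell at least 2-fold, the APC/C inhibitor FBXO5 (EMI1, -1.41) and the subunit ANAPC1 (-1.10). In Huh7, 4 were lower (30.8%, beside 29.1%) and none higher, with a median of 0.01. Of 17 condensin and cohesin genes, 16 were lower and none higher in HepG2 (median -0.83), and 9 were lower and 2 higher in Huh7 (median -0.44), led in HepG2 by the condensin subunit NCAPG (-3.39). Of 17 DREAM and RB family genes, 12 were lower and 1 higher in HepG2, and 9 were lower and 4 higher in Huh7 (medians -1.09 and -0.59). The largest rise in Huh7 was that of TFDP2 (1.25), a partner of E2F factors, and RBL2 (p130), a pocket protein of DREAM, was higher in both (0.31 and 0.35). Of the 14 reference genes, 6 were lower and 3 higher in HepG2, and 4 were lower and 4 higher in Huh7 (medians -0.25 and 0.06).

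**Figure D3:**
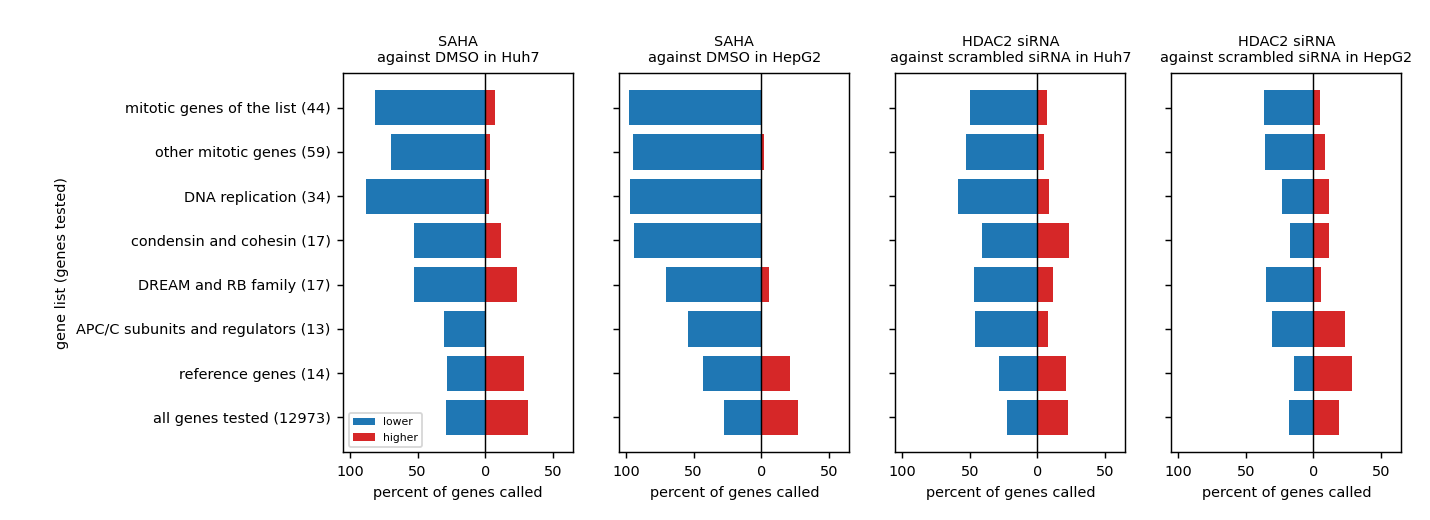
Percent of the genes of each list that were lower (left bars) and higher (right bars) at a limma adjusted p under 0.05 in each of the 4 treatment comparisons, with the number of genes tested in brackets and all 12973 genes at the bottom. In the SAHA panels the mitotic list has left bars of 97.7% in HepG2 and 81.8% in Huh7, against 27.6% and 29.1% for all genes.

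With HDAC2 siRNA in Huh7 the mitotic genes shifted far less, and unevenly. Of 44 genes, 22 were lower and 3 higher, with a median of -0.32, and 22.4% of all genes were lower and 22.9% higher (45.3% in either direction). CDC20, PLK4 and MAD2L1 fell at least 2-fold, beside 5.08% of all genes, and PRC1 rose at least 2-fold, beside 4.94%. Beside this, 7 of 12 hepatocyte markers were higher and 2 lower with the siRNA in Huh7, with sums of 94190 to 101126 against 95194 to 104223 (scrambled). The leukocyte sum was 545 to 610 against 695 to 913, with 2 of 6 markers lower, and no fibroblast or endothelial marker passed in limma. In HepG2, 3 hepatocyte markers were higher and 3 lower, and the leukocyte sum was 823 to 939.5 against 886 to 984. Of the 6 leukocyte markers, 1 was higher and 1 lower there. Whether these shifts bear on the mitotic genes was not tested.

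CDC20 was at 13.70, 13.84, 13.63 and 13.67 with the scrambled siRNA and 11.87, 11.89, 11.92 and 12.29 with the HDAC2 siRNA in Huh7. The HepG2 signal was 12.16, 12.12, 12.42 and 12.02 and 12.17, 12.43, 12.00 and 11.58. The Huh7 groups were apart and the HepG2 groups overlapped. CDC20 kept 30.5% in Huh7 (-1.72, SE 0.12, limma adjusted p = 9.63e-13) and changed by -0.13 in HepG2 (adjusted p = 0.437). The line difference was 1.58, SE 0.17 (adjusted p = 2.13e-08), the largest of the list for the siRNA.

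PRC1 was at 10.40, 10.44, 10.45 and 10.54 with the scrambled siRNA and 11.69, 11.63, 11.64 and 11.52 with the HDAC2 siRNA in Huh7. In HepG2 it was at 11.45, 11.23, 11.33 and 11.50 and 11.27, 11.09, 11.16 and 10.97. Every HDAC2 siRNA array was above the scrambled arrays in Huh7, and the HepG2 groups overlapped. PRC1 rose 2.24-fold in Huh7 (1.16, SE 0.08, adjusted p = 7.72e-13) and was lower by a small amount in HepG2 (-0.25, SE 0.08, adjusted p = 0.0156), for a line difference of -1.42 (adjusted p = 9.61e-11). On the DMSO arrays of Huh7 PRC1 was at 11.56 to 11.69, as high as on the HDAC2 siRNA arrays and above the scrambled ones. That comparison crosses the 2 subsets and was not tested.

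The rest of the genes followed by role. FOXM1 changed by -0.22 and MYBL2 by -0.18, and neither passed (adjusted p = 0.292 and 0.644). Among cyclins CCNA2 fell (-0.76, SE 0.15, adjusted p = 7.03e-05), while CCNB1 (-0.43) and CCNB2 (0.21) did not pass. All 4 mitotic kinases were lower, PLK4 most (-1.22, SE 0.17, adjusted p = 3.59e-07) and AURKA least (-0.26, adjusted p = 0.0243). Without scrambled array 4 AURKA no longer passed (-0.18, adjusted p = 0.133), nor without scrambled array 3.

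In the checkpoint only MAD2L1 of 5 genes passed (-1.04, SE 0.17, adjusted p = 9.48e-06). All 5 genes of APC/C activation and substrates were lower, from CDC20 to UBE2C (-0.42). Of 8 kinetochore genes 4 were lower (CENPE -0.76, CENPF -0.63, SPC24 -0.34 and SPC25 -0.77). In the passenger complex BIRC5 (-0.82), INCENP (-0.54) and CDCA8 (-0.31) were lower, and AURKB (-0.18) did not pass.

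The kinesins moved both ways. KIF2C was lower (-0.55, adjusted p = 0.000963), and KIF20A (0.53, adjusted p = 7.99e-06) and KIF11 (0.49, adjusted p = 0.00803) were higher. KIF4A (0.12) and TOP2A (-0.28) did not pass. NUSAP1 was the one spindle assembly gene that passed (-0.61), and its other probe gave 0.07. KIF23 (-0.46) and RACGAP1 (-0.38) were lower beside the rise of PRC1, and ANLN (0.26) did not pass.

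With 1 array left out at a time, 21 to 26 genes passed in Huh7. Calls that rested on 1 scrambled array were those of KIF11 (without array 1, 0.37, adjusted p = 0.0509), PLK1 (without array 2, -0.27, adjusted p = 0.0913), NEK2 (without array 2, -0.28, adjusted p = 0.0709, or array 3) and RACGAP1 (without array 4, -0.31, adjusted p = 0.0541). CDCA8 was lost without any one of 6 arrays (scrambled 1 and 4 and all 4 HDAC2 siRNA arrays), most without scrambled array 4 (-0.23, adjusted p = 0.142). SPC25 was lost without scrambled array 1 (-0.50, adjusted p = 0.147) or 4, or without HDAC2 siRNA array 2 or 3. Without scrambled array 1, BUB1 (-0.33, adjusted p = 0.017), TTK (-0.36, adjusted p = 0.0419) and TOP2A (-0.43, adjusted p = 0.048) passed as lower and ZWINT as higher (0.53, adjusted p = 0.017).

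**Figure D4:**
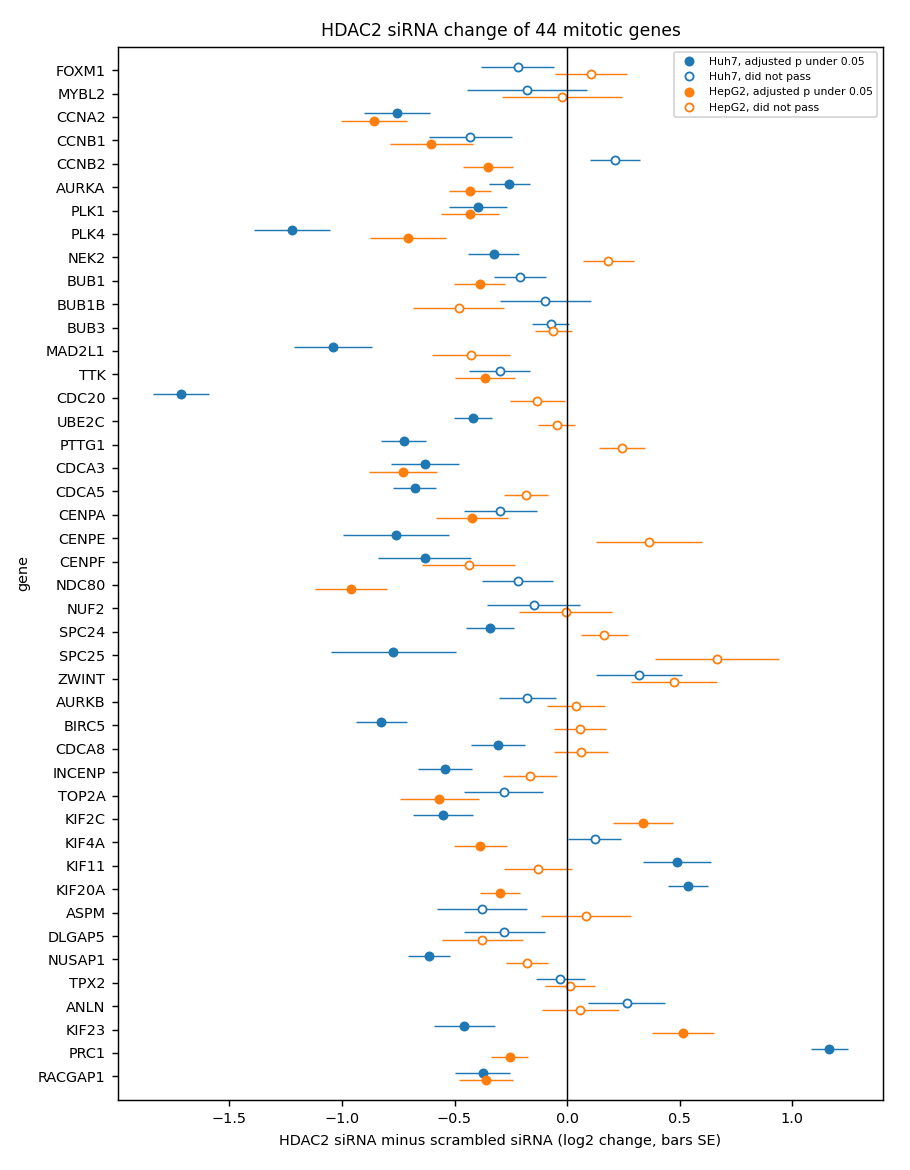
Log2 change with HDAC2 siRNA of each of the 44 genes in Huh7 (blue) and HepG2 (orange), bars being standard errors, filled points passing an adjusted p of 0.05 and open points not. Most points lie within 1 log2 unit of 0, CDC20 is far left and PRC1 far right in Huh7, and the 2 lines often disagree in sign.

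In HepG2 the HDAC2 siRNA changed still fewer of the genes. Of 44, 16 were lower and 2 higher (median -0.17), beside 17.8% lower and 18.8% higher of all genes (36.6% in either direction). None of the 44 passed in limma with a 2-fold change, beside 2.60% of all genes lower and 1.65% higher by that mark. NDC80, the kinetochore subunit that binds microtubules, fell most. It was at 8.58, 8.55, 7.93 and 8.52 with the scrambled siRNA and 7.79, 7.56, 7.31 and 7.11 with the HDAC2 siRNA, groups that did not overlap (-0.96, SE 0.16, limma adjusted p = 1.64e-05).

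CCNA2 was at 11.92, 12.12, 11.90 and 12.01 with the scrambled siRNA and 11.28, 11.13, 11.03 and 11.08 with the HDAC2 siRNA. Its groups did not overlap either, and the change (-0.86, SE 0.15, adjusted p = 2.41e-05) was near the -0.76 of Huh7. CCNB1 (-0.60) and CCNB2 (-0.35) also passed, CCNB1 not without HDAC2 siRNA array 4 (-0.34, adjusted p = 0.0945). FOXM1 changed by 0.11 and MYBL2 by -0.02 (adjusted p = 0.655 and 0.956).

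Among the kinases PLK4 (-0.71), AURKA (-0.43) and PLK1 (-0.43) were lower and NEK2 (0.18) did not pass. BUB1 (-0.39) and TTK (-0.36) were lower in the checkpoint. Of the genes grouped here under APC/C activation and its substrates, only CDCA3 (-0.73) passed. CENPA (-0.42) was the other kinetochore gene that passed, close to the threshold (adjusted p = 0.0395), and its other probe gave 0.05. No subunit of the passenger complex passed. TOP2A (-0.57), KIF4A (-0.39), KIF20A (-0.30), PRC1 and RACGAP1 (-0.36) were lower, and no spindle assembly gene passed.

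KIF23, a motor of the central spindle, and KIF2C were the 2 that rose in HepG2. KIF23 was at 7.68, 7.34, 7.86 and 7.39 with the scrambled siRNA and 7.99, 7.79, 8.35 and 8.21 with the HDAC2 siRNA. In Huh7 it was at 9.31, 9.29, 9.11 and 9.22 and 8.87, 8.78, 8.74 and 8.72. The HepG2 groups overlapped and the Huh7 groups did not, and the change was 0.52, SE 0.14 in HepG2 (adjusted p = 0.0034) and -0.46, SE 0.14 in Huh7 (adjusted p = 0.00654). KIF2C was close to the threshold in HepG2 (0.34, adjusted p = 0.0487).

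With 1 array left out at a time, 13 to 20 genes passed in HepG2. KIF2C was lost without any one of 6 arrays, TTK without 4, CENPA without 5 and RACGAP1 without 4, at adjusted p = 0.0513 to 0.154. BUB1 was lost without scrambled array 4 (-0.27, adjusted p = 0.0632), TOP2A without scrambled array 4 (-0.46, adjusted p = 0.0544) or HDAC2 siRNA array 2, and PLK1 without HDAC2 siRNA array 3 (-0.32, adjusted p = 0.0574). CCNB2 was lost without HDAC2 siRNA array 3 or 4 (-0.27, adjusted p = 0.0672), and PRC1 without scrambled array 4 or HDAC2 siRNA array 4 (-0.20, adjusted p = 0.0694). MAD2L1 passed as lower without scrambled array 3 (-0.60, adjusted p = 0.0072) or HDAC2 siRNA array 1, CENPF as lower without HDAC2 siRNA array 3 (-0.77, adjusted p = 0.000211), and SPC25 as higher without HDAC2 siRNA array 4 (0.92, adjusted p = 0.0102), array 3 or scrambled array 2. BUB1B and DLGAP5 (lower) and PTTG1, ZWINT, NEK2 and SPC24 (higher) also passed without 1 or more single arrays, at adjusted p = 0.0068 (BUB1B without HDAC2 siRNA array 1) to 0.0499. In a fit of the HepG2 siRNA arrays alone, 7 of the 44 genes passed, a count not set beside the share of all genes in that fit.

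With the siRNA, CCNA2, AURKA, PLK1, PLK4, CDCA3 and RACGAP1 were lower in both lines, 6 of 44 (13.6%, beside 7.6% of all genes). KIF2C, KIF20A, KIF23 and PRC1 passed in opposite directions, 4 of 44 (9.1%, beside 5.7%). Leaving out single arrays cost the calls of KIF2C and PRC1 in HepG2 and of AURKA in Huh7. The calls of PLK1 and RACGAP1 were lost that way in both lines. Across the 44 genes the siRNA changes of the 2 lines correlated with r = 0.03 (Spearman rho = 0.02), again a description over genes. The line difference (HepG2 minus Huh7) passed for 18 genes, above 0 for 12 and below 0 for 6, beside 18.8% and 18.4% of all genes (37.2% in either direction). At least 2-fold, 3 were above 0 and 1 below, beside 5.44% and 6.25%. Of the 6 genes lower in both lines with the siRNA, 5 (all but RACGAP1) were also lower in both lines with SAHA. Those 5 are 11.4% of the 44, beside 2.2% of all genes. Regardless of the siRNA, 36 of the 44 (81.8%) were lower in both lines with SAHA, beside 14.9% of all genes.

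**Figure D5:**
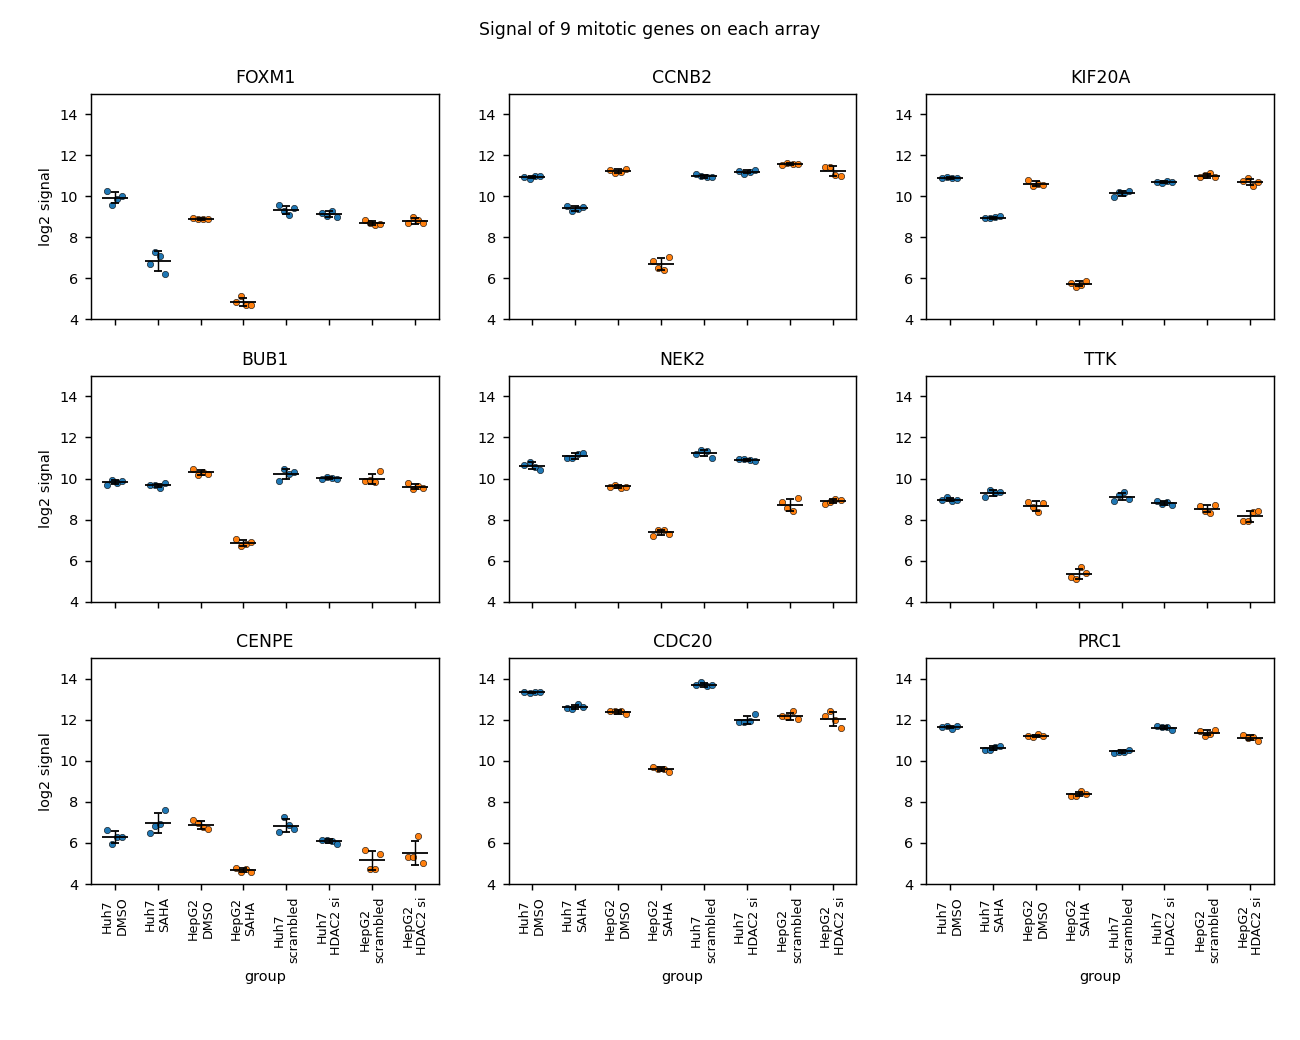
Log2 signal of 9 mitotic genes on each array (points, Huh7 blue and HepG2 orange) with the group mean (bar) and SD (whisker), 4 arrays per group. FOXM1, CCNB2 and KIF20A fall with SAHA in both lines, BUB1 falls with SAHA in HepG2, NEK2, TTK and CENPE are a little higher in Huh7 and far lower in HepG2, and CDC20 and PRC1 shift with HDAC2 siRNA in Huh7.

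CDKN1A was read as context for the siRNA too. It fell in Huh7 with the HDAC2 siRNA (-1.49, SE 0.10, limma adjusted p = 3.76e-13) and rose in HepG2 (1.33, SE 0.10, adjusted p = 1.42e-11), while the median change of the 44 mitotic genes was below 0 in both lines. Its part in the changes of the mitotic genes was not tested.

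The 2 kinds of control arrays were not alike for every gene. In HepG2, UBE2C was at 12.12 to 12.41 with DMSO and 10.24 to 10.43 with the scrambled siRNA, CENPE at 6.67 to 7.11 and 4.74 to 5.66, and TOP2A at 12.07 to 12.58 and 11.17 to 11.79. These ranges do not overlap. CENPE was near the detection limit on the HepG2 scrambled arrays, being detected on only 2 of the 4. The labels place the 2 kinds of control arrays in separate subsets. A siRNA change is therefore read here only against the scrambled arrays, and a SAHA change only against the DMSO arrays.

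Of the 44 genes, 10 had a further detected probe. With SAHA in HepG2 the second probe gave -3.77 for AURKA, -2.91 for NUSAP1 and -3.21 for CENPA, all 3 detected on all 32 arrays. With the HDAC2 siRNA the same probes gave less than those used above. In Huh7 they gave -0.21 for AURKA (adjusted p = 0.129) and 0.07 for NUSAP1 (adjusted p = 0.755), and in HepG2 0.05 for CENPA (adjusted p = 0.821), none of which passed. Dim probes gave smaller changes with SAHA in HepG2, such as -0.70 for KIF23 and -0.58 and -0.42 for the 2 further ZWINT probes, the last of which did not pass (adjusted p = 0.0662). BUB3 and UBE2C also had a second probe detected on all 32 arrays. Changes of the further BUB3, UBE2C, BIRC5 and NUF2 probes are not given here, so the calls of these genes rest on the probe used above.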

How the data were processed

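Total RNA was labelled with biotin and read on one-colour Illumina bead arrays, 32 arrays in 8 groups of 4. The submitters' processing notes list GenomeStudio 2011.1, with no step given for it. The authors deposited a table of probe intensity values without background subtraction, with, per the file headers, a detection p-value beside every intensity. A second deposited table, of intensity values with a shared distribution and a minimum of -32.7, was used as an alternative.

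Intensities were background-corrected by normexp from the detection p-values (limma 3.58.1, R 4.3.3), given an offset of 16, quantile-normalized and put on the log2 scale, so folds of dim genes are understated. Probes detected at p under 0.05 on at least 4 arrays were kept. A gene was its probe with the highest mean, 12973 genes in all, with older symbols updated through RefSeq. limma was fitted to the 8 group means (24 residual and 5.66 prior degrees of freedom), two-sided, with Benjamini-Hochberg adjustment over all genes, and was tested on simulated data. Array number limits the precision. "At least" folds set undetected arrays to the lowest detected signal.

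Same-numbered arrays of compared groups had deviations correlated at -0.14 to 0.26, and 4 of 16 correlated best with their own number. This gave no sign that the numbers pair the arrays, but with 4 arrays per group it cannot exclude pairing. No array date or slide was given, and no 2 arrays were identical. Members, gene lists, motifs and marker lists were chosen with earlier results of these data known. The text names every list member, up to 3 genes with the largest changes of each other list, and HDAC2 and CDKN1A as context. Alternatives covered background, offset, scaling, filter, probe choice, samples in the fit, array weights, a block and each array left out.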

Additional observations from a re-analysis of the deposited data

Results flagged for a closer look

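The SAHA effect differed between the lines for 40 of the 44 genes by the test of the difference itself (limma adjusted p under 0.05, 28.1% of all genes lower by that test). Values are the log2 effect in HepG2 minus that in Huh7, and all 40 were below 0. In the regulators of mitotic entry it was -0.94 for FOXM1, -2.16 for CCNA2, -2.04 for CCNB1, -3.02 for CCNB2, -1.42 for AURKA, -2.41 for PLK4 and -2.73 for NEK2. In the checkpoint it was -3.28 for BUB1, -0.92 for BUB1B, -1.07 for MAD2L1 and -3.63 for TTK, the last being the widest of the list. Around the APC/C it was -2.06 for CDC20, -1.58 for UBE2C, -1.37 for PTTG1, -0.67 for CDCA3 and -1.64 for CDCA5. The probes used for FOXM1, MAD2L1, CENPE, NUF2 and KIF23 were detected on no HepG2 SAHA array. With lower signals raised to the lowest detected signal of each array, their differences were -0.50, -0.44, -2.26, -0.95 and -1.63, in that order.

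At the centromere and kinetochore the difference was -2.82 for CENPA, -2.88 for CENPE, -3.07 for CENPF, -1.85 for NDC80, -1.26 for NUF2, -0.64 for SPC24 and -1.26 for ZWINT. The second most detected ZWINT probe went the other way (0.81, adjusted p = 0.0107). In the passenger complex it was -1.19 for AURKB, -1.13 for BIRC5, -2.28 for CDCA8 and -1.19 for INCENP, and it was -0.73 for TOP2A. Among motors and spindle proteins it was -1.78 for KIF2C, -1.77 for KIF4A, -2.99 for KIF11, -2.93 for KIF20A, -3.20 for ASPM, -2.59 for DLGAP5, -1.71 for NUSAP1 and -2.11 for TPX2. In cytokinesis it was -2.45 for ANLN, -1.89 for KIF23, -1.82 for PRC1 and -1.49 for RACGAP1.

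The HDAC2 siRNA effect differed between the lines for 18 of the 44 genes, tested the same way, beside 37.2% of all genes. Whether that count sets the list apart from all genes was not tested. The log2 effect in HepG2 minus that in Huh7 was above 0 for 12 genes, which includes genes that fell in Huh7 and changed less in HepG2, such as CDC20 (-1.72 in Huh7 and -0.13 in HepG2). These differences were those of NEK2 (0.51), CDC20 (1.58), UBE2C (0.37), PTTG1 (0.97), CDCA5 (0.49), CENPE (1.12), SPC24 (0.51), SPC25 (1.44), BIRC5 (0.88), KIF2C (0.89), NUSAP1 (0.44) and KIF23 (0.97). It was below 0 for 6, namely CCNB2 (-0.56), NDC80 (-0.74), KIF4A (-0.51), KIF11 (-0.62), KIF20A (-0.83) and PRC1 (-1.42). In HepG2, CENPE lay near the detection limit, being detected on 2 of 4 scrambled and 1 of 4 HDAC2 siRNA arrays. For NUSAP1, the fall in Huh7 was not shown by its other probe, which did not pass. KIF11 no longer passed without any one of 4 arrays, such as scrambled array 1 of Huh7 (-0.50, adjusted p = 0.0611). MAD2L1 passed without any one of 5 arrays, such as HDAC2 siRNA array 3 of HepG2 (0.80, adjusted p = 0.00613), PLK4 without any one of 3, and INCENP without HDAC2 siRNA array 4 of HepG2 (0.45, adjusted p = 0.0385).

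An array stood apart from the other 3 of its group, by Dixon's criterion, in 21 of 360 groups of 4 values, where chance gives about 1 in 20. On the Huh7 DMSO arrays these were CCNB2 on array 2 (10.85) and ZWINT on array 3 (8.30), and with SAHA RACGAP1 on array 2 (9.96). On the HepG2 DMSO arrays they were FOXM1 on array 1 (8.94), TPX2 on array 2 (10.66), CDCA8 on array 3 (9.94) and CDC20 on array 4 (12.26), and with SAHA CENPF on array 1 (4.88). On the scrambled arrays they were ZWINT (8.62) and RACGAP1 (9.94) on array 1 of Huh7 and NDC80 on array 3 of HepG2 (7.93).

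On the HDAC2 siRNA arrays of Huh7 they were RACGAP1 on array 2 (9.92), AURKB on array 3 (11.29), and CCNB1 (9.53), CDC20 (12.29) and CDCA5 (10.96) on array 4. On those of HepG2 they were CENPF (8.83) and AURKB (10.55) on array 3 and BUB3 on array 4 (12.78). Taken over the 44 genes, the mean centred signal stood apart on Huh7 DMSO array 4 (0.69) and on HepG2 HDAC2 siRNA array 4 (0.06), the latter also having the lowest share of detected probes, 48.3%.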

How the results depend on the processing

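Counts of mitotic genes that passed were 39 and 43 for SAHA in Huh7 and HepG2, 25 and 18 for HDAC2 siRNA, 40 and 18 for the line differences and 30 for the lines with DMSO. With only probes detected on all 32 arrays, 28 genes of the list were left, of which 28 passed for SAHA in HepG2 and 26 for the SAHA line difference. A required 2-fold change left 25 genes for SAHA in Huh7, 4 and 0 for HDAC2 siRNA in Huh7 and HepG2, 4 for its line difference and 6 between the lines with DMSO. HDAC2 siRNA in HepG2 passed for 7 genes in a fit of its own arrays, 11 with array weights and 12 with median scaling, and the cause was not tested. These counts are not set beside the share of all genes under the same settings, so they do not show how the list stands against all genes. The other alternatives kept each count within 1.5 times. Leaving out 1 array at a time gave 37 to 39 and 43 to 43 for SAHA, 21 to 26 and 13 to 20 for HDAC2 siRNA, 40 to 40 and 17 to 19 for the line differences, and 27 to 30 with DMSO. The direction reversed for TTK with SAHA in Huh7 under median scaling (-0.032) and for the SAHA line difference of FOXM1 (0.13) and CDCA3 (0.048) without background correction; the cause was not tested. With the replicate block, which pairs arrays by number although no label gives such a pairing, the counts were 39, 43, 26 and 19 for the treatments. For the line differences they were 40 and 19. The block and normalization within each line gave no value for the lines with DMSO. Signal near background limits 16 genes not detected on all HepG2 SAHA arrays, whose falls there can be understated.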
